A study of Mus musculus with 4 samples.

Results

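The 7 genes described here encode neuropeptide precursors and were followed in the dentate gyrus of mice: Penk, Cck, Npy, Sst, Trh, Tac1 and Vip. They were taken by name, as every probe set (the group of short oligonucleotides on an array that reports 1 transcript) whose single annotated gene symbol is one of the 7. All 7 members had at least 1 probe set, and together they had 9 of the 12488 on the array, against 8251 genes with such a probe set in all. The animals were young male C57BL/6J mice that had been handled and given no other treatment. Total RNA was taken from the dentate gyrus at 1, 2, 4 or 6 h, counted from the last shock of a parallel group of mice, and each hour is 1 sample on 1 array (n = 4 in all). The parallel shocked group is not analysed here, and the number of animals behind each sample is not given in the sources used here. Hour and array cannot be told apart, and no value at 1 hour has a replicate.

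Neuropeptides are made as larger precursor proteins that enter the regulated secretory pathway, where they are cut at pairs of basic residues, trimmed and often amidated before storage in dense-core vesicles. In the hippocampus, Sst, Npy, Vip and much Cck RNA belong to GABAergic interneurons, while opioid peptides of the Penk and Pdyn genes can be made by granule cells. The receptors for these peptides are G protein-coupled, and several of the precursor genes are classic targets of cAMP and calcium signalling through the factor CREB, which binds the cAMP response element (CRE).

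Intensities were linear values as deposited. The median of all probe sets was 185.6, 187.3, 212.75 and 184.75 at 1, 2, 4 and 6 h, and of 4951 tested genes 1556 had their maximum and 1448 their minimum on the 4 h array, more than on any other array in both directions. An intensity of 38.3 (the 20th percentile over the table) served as a floor, and dimmer readings were raised to it for every fold. Testing was limited to genes averaging at least 7.41 in log2 (an intensity of 170). The labelled tissue was checked on granule cell markers, of which 7 of 9 with a probe set passed that filter, led by Ncdn (32035 to 37162), a neuronal protein, and Calb1 (2453 to 3026), a calcium buffer of mature granule cells. The summed intensity of that list ran from 39657 to 43537 over the hours, most of it from Ncdn. Among its dimmer members, named after their values were seen, Neurod1 ran from 447 to 750, Prox1 from 153.5 to 249 and Rasgrp1, under the filter, from 54.3 to 329.9.

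CRE letters stood in the promoter windows of 5 of the 6 members that have an entry in the RefSeq promoter table, all but Penk (GRCm38.p6, 250 bases before to 50 after the start site). The stretches below are shown because the CRE is the textbook regulatory element of neuropeptide genes, and they hold 3 different forms of its letters. Capitals mark the match, the flanks are up to 20 bases, and each stretch reads along the gene's own strand.
Sst: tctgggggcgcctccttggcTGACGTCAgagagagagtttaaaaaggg
Vip: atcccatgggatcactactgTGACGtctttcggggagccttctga
Tac1: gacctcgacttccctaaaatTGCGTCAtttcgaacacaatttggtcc
Cck: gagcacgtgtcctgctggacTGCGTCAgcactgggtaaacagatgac
Trh: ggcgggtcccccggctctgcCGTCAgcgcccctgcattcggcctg

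These stretches lie upstream of the start site, at chr16:23890865-23890912 for Sst (minus strand), chr10:5639119-5639163 for Vip (plus strand), chr6:7554842-7554888 for Tac1 (plus strand), chr9:121495717-121495763 for Cck (minus strand) and chr6:92244722-92244766 for Trh (minus strand). The full palindrome TGACGTCA, searched on both strands, was in the Sst window, with its first base 48 bases before the start. It was in 588 of 32851 promoter windows of this length in the table (1.79%). The heptamer TGCGTCA, or its reverse TGACGCA, was in the Tac1 window at 199 bases and in the Cck window at 49 bases before the start, and in 2.12% of all windows. The half-site TGACG, or its reverse CGTCA, was in the Sst, Vip, Tac1, Cck and Trh windows and in 20.8% of all windows. It lies inside both longer motifs, so the counts overlap. Its position was 79 bases before the start in Vip and 96 in Trh, and Tac1 held a further match at 43 bases. The Npy window held none of these letters. A match is a description of the sequence, and binding was not measured.

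By the brightest probe set of each gene, Cck, Npy, Sst and Penk read far above the floor at every hour and spanned less than 2-fold between hours. Trh and Vip spanned over 2-fold, and Tac1 came just under that with values under the filter on dim genes. With limma, a line of log2 intensity on the hour was fitted to all genes past the filter, and 0 of 4951 genes (0.00%) had a Benjamini-Hochberg adjusted p under 0.05. Before adjustment 100 genes had a p under 0.05, and Trh was the 1 member among them. Of the members, 5 were past the filter, with slopes above 0 for 2 (Cck, Trh) and below 0 for 3 (Npy, Sst, Penk), and Tac1 and Vip were under it. Their median slope was −0.03 log2 per h, beside −8.3e-05 over all tested genes. Probe sets differ in how they respond to RNA, so no amounts of RNA were compared between genes. Words such as bright and dim, and sums over a list, describe array signal alone.

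**Figure D1:**
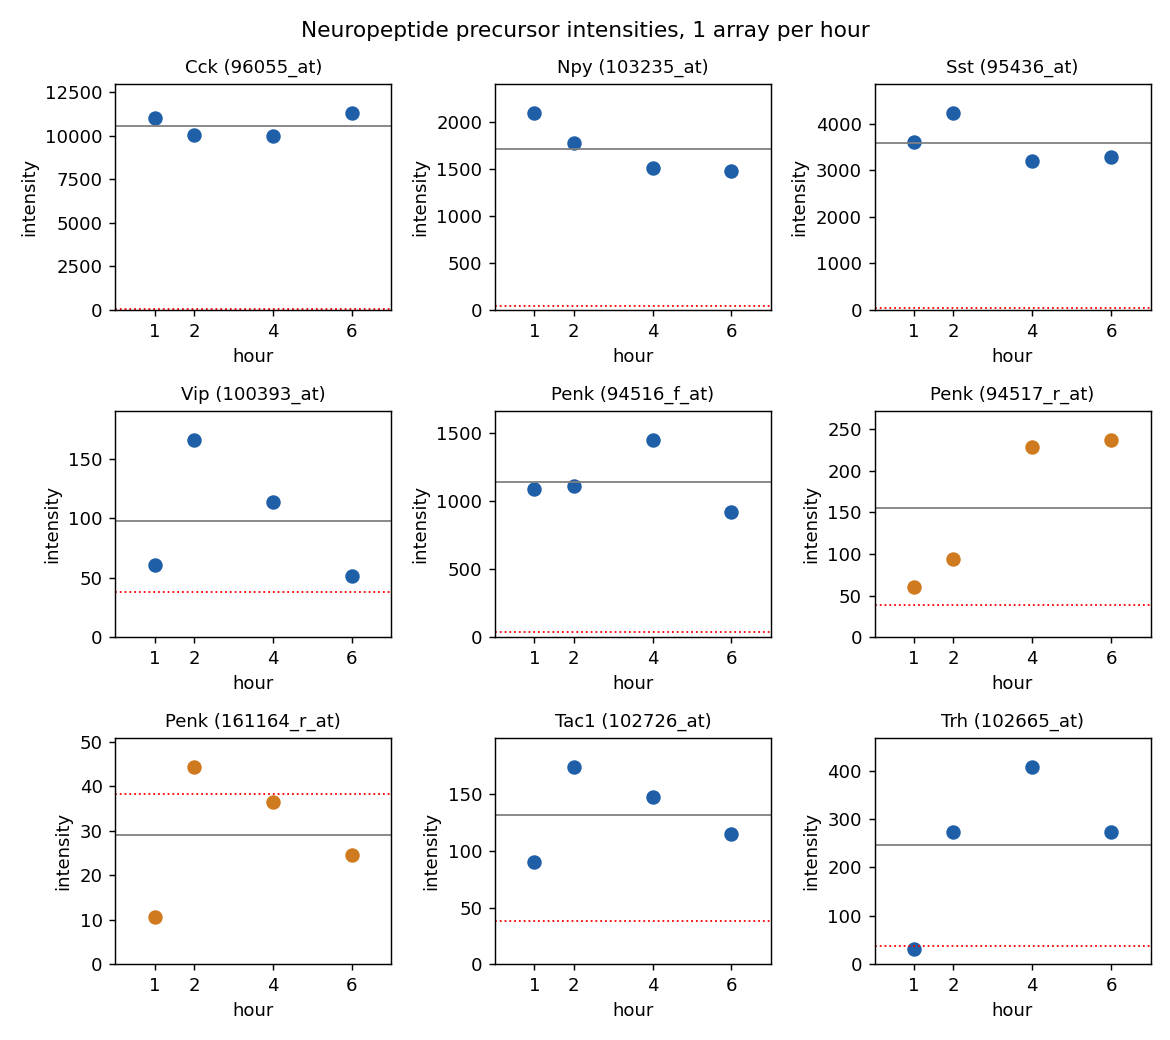
Intensity (linear axis from 0) of each of the 9 probe sets against the hour, with 1 point per array, the mean as a grey line and the floor of 38.3 as a dotted red line; blue marks the probe set used for the gene and orange the other Penk probe sets. The points of Cck, Npy and Sst lie close to their means, and the Trh point at 1 h (30.7) lies under the floor.

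Cck encodes cholecystokinin, a peptide of basket-type interneurons and, more weakly, of some principal cells. Its intensities were 11043, 10035, 9965 and 11298 at 1, 2, 4 and 6 h, a mean of 10585 ± 684 (SD, n = 4). The outer hours were the higher pair and the middle hours the lower pair, with 1.13-fold between the extremes. Of the tested genes, 95.3% had a range at least as wide. Its fitted slope came to 0.01 ± 0.05 log2 per h (SE, n = 4), with a 95% interval from −0.10 to 0.12 (limma adjusted p = 0.99993). Under quantile normalisation the lowest hour was 2 h in place of 4 h.

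Sst encodes somatostatin, an inhibitory peptide of hilar interneurons whose axons reach the outer molecular layer. It read 3604 at 1 h, 4223 at 2 h, 3194 at 4 h and 3272 at 6 h, a mean of 3573 ± 468 (SD, n = 4). The 2 h array was the high one and the 4 h and 6 h arrays were the low pair, with 1.32-fold over the whole range. Its slope was −0.05 ± 0.05 log2 per h (SE, n = 4; 95% interval −0.17 to 0.06; limma adjusted p = 0.99993).

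Npy encodes neuropeptide Y, which dampens glutamate release and is found in the hilus beside somatostatin. It was the 1 member whose chosen probe set moved one way at every step, reading 2097, 1776, 1516 and 1478, with a mean of 1717 ± 286 (SD, n = 4). The 6 h value was the lowest, 1.42-fold under that at 1 h, and 57.4% of tested genes ranged at least as widely. Its fitted slope came to −0.10 ± 0.06 log2 per h (SE, n = 4; 95% interval −0.22 to 0.03; limma adjusted p = 0.99993). Scaling each array to its median put the lowest value at 4 h, since that scaling places the median of all tested genes at 4 h at −0.17 log2 from the other hours.

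Vip encodes vasoactive intestinal peptide, a peptide of interneurons that mainly contact other interneurons. Its values were 60.6, 165.7, 113.9 and 51.5, a mean of 97.9 ± 52.9 (SD, n = 4), under the filter on dim genes. The 2 h and 4 h arrays were high and the 1 h and 6 h arrays low, with 3.22-fold between 2 h and 6 h. Among the 3300 genes under the filter 57.9% spanned over 2-fold, and 27.5% ranged at least as widely as Vip. Fitted without the filter, Vip had a slope of −0.12 and Tac1 one of 0.02 log2 per h (limma adjusted p = 1 over 8251 genes for both).

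These 4 interneuron peptides were set beside markers of GABAergic interneurons, of which 13 of 14 had a probe set and 7 were past the filter. Gad1, the main GABA-synthesising enzyme, read 3985, 4036, 3713 and 3492, and the calcium buffer Pvalb 3385, 2529, 2753 and 2305. The second GABA enzyme gene, Gad2, was dim, at 150.5, 121.7, 79.9 and 42.5. The vesicular GABA transporter gene Slc32a1, named with Gad2 after its values were seen, was, like Sst and Vip, highest at 2 h, at 1640, 2707, 1720 and 1843. The summed intensity of the list was 11714, 12350, 10963 and 10166, so it was highest at 2 h and lowest at 6 h. Its 2 h peak rested on Slc32a1, and without that gene the sum would be highest at 1 h. Pvalb and Gad2 were highest at 1 h, and Gad1 at 2 h. No listed marker lay under the floor at every hour. Slopes were positive for 3 and negative for 4 of the 7, and 0 were called. Of the 7, 2 spanned over 2-fold, beside 15.0% of all genes past the filter. In a bulk sample fewer cells of a type and less RNA per cell cannot be told apart, and the part of interneuron content in the peptide values was not tested.

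Penk encodes proenkephalin, the precursor of the enkephalins, and its 3 probe sets did not follow one course. By the suffixes of their names, the brightest shares probes with a family of similar sequences and the other two were designed under relaxed rules, so signal from other transcripts cannot be told apart. The brightest read 1086 at 1 h, 1110.5 at 2 h, 1447 at 4 h and 916 at 6 h, a mean of 1140 ± 222 (SD, n = 4), highest at 4 h and lowest at 6 h with 1.58-fold between them. Its slope was −0.03 ± 0.07 log2 per h (SE, n = 4; 95% interval −0.18 to 0.12; limma adjusted p = 0.99993).

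The second Penk probe set, annotated to the same transcript entry, read 60.1, 94.1, 228.3 and 236.7. It was higher at each later hour, with 3.94-fold between 1 h and 6 h. At 6 h the first probe set was thus at its lowest and the second at its highest. The third read 10.7, 44.2, 36.4 and 24.5, above the floor at 2 h alone, so it shows no order among the other hours. Averaging the 3 probe sets gave a Penk slope of 0.12 log2 per h, the opposite sign to the main value.

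Tac1 encodes the precursor of substance P and neurokinin A. It read 89.9, 173.7, 147.8 and 114.6, a mean of 131.5 ± 36.8 (SD, n = 4), under the filter. The 2 h value was the highest and the 1 h value the lowest, 1.93-fold apart, and 60.3% of genes under the filter ranged at least as widely. Tac1 and Penk are abundant in the striatum, for which 1 listed marker, Rgs9, had a probe set. Rgs9 was under the filter, at 71.6, 14.8, 74.3 and 42.5, and under the floor at 2 h, where Tac1 was highest. It was highest at 4 h, close to its 1 h value, and the brightest Penk probe set was also highest at 4 h. The part of striatal tissue in the Tac1 and Penk values was not tested.

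Trh, the precursor of thyrotropin-releasing hormone, is known for its hypothalamic role in the thyroid axis and is also made in forebrain neurons. It read 30.7 at 1 h, 273.2 at 2 h, 406.6 at 4 h and 272.3 at 6 h, a mean of 246 ± 157 (SD, n = 4). The 1 h array was the low one, under the floor, while the 2 h and 6 h arrays differed by less than 1 unit of intensity. Against the floor, Trh was at least 7.13-fold higher at 2 h, at least 10.6-fold higher at 4 h and at least 7.11-fold higher at 6 h. Among the 4951 genes past the filter, 15.0% spanned over 2-fold, and 3, Trh among them, had a range at least as wide as that of Trh. Between 2 h and 4 h it spanned 1.49-fold. The mean log2 of Trh, 7.53, was just past the filter.

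The Trh slope was 0.46 ± 0.19 log2 per h (SE moderated by limma, n = 4; 95% interval 0.05 to 0.87), with a limma adjusted p of 0.99993. Without the 1 h sample the slope was −0.00119, so it rests on that array. At 1 h, 33 of the 4951 genes were more than 2-fold under every other hour and 4 were more than 2-fold above. Genes low in this way outnumbered those high on each of the other arrays too. The 2 h array had 31 low genes beside 9 high ones. The 4 h array had 48 low beside 18 high, the 6 h array 32 low beside 6 high. In the list of hypothalamic markers 8 of 11 had a probe set and 3 were past the filter. The summed intensity of the 8 was 3808, 3573, 3903 and 3152, led by Nr5a1 (2251, 2037, 2782 and 1851) and the peptide gene Gal (415, 373, 439 and 355). By these probe sets both were lowest at 6 h, but Gal had a second (183, 96.5, 178 and 110) that was lowest at 2 h. Further Nr5a1 probe sets were much dimmer (10 to 522.5) and differed in their lowest hour. The third gene past the filter, the oxytocin gene Oxt (159, 518, 293 and 420), was lowest at 1 h as Trh was. Listed genes under the filter ran the other way at 1 h: Hcrt (411, 38.7, 64.6 and 286.7) and Otp (212.8, 186.9, 132.9 and 119.2) were highest there, and Pomc (308, 350.5, 88.4 and 61.9) was high at 1 h and 2 h. Of the defining hypothalamic genes, Avp read 38.7, 31.6, 32.6 and 42.1, near the floor at every hour, and Sim1 was above it at 4 h alone. Otp, Avp and Sim1 were named after their values were seen. Markers of thalamus and habenula, 8 of 10 with a probe set, summed to 3150, 3241, 3302 and 2639, led by Calb2 and Prkcd. Calb2 is also on the interneuron list, by the same probe set, so this sum does not read thalamus and habenula alone. Of the 5 past the filter, 3 spanned over 2-fold, beside 15.0% of all genes past the filter. The part of tissue carried from outside the dentate gyrus in the Trh values was not tested.

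**Figure D2:**
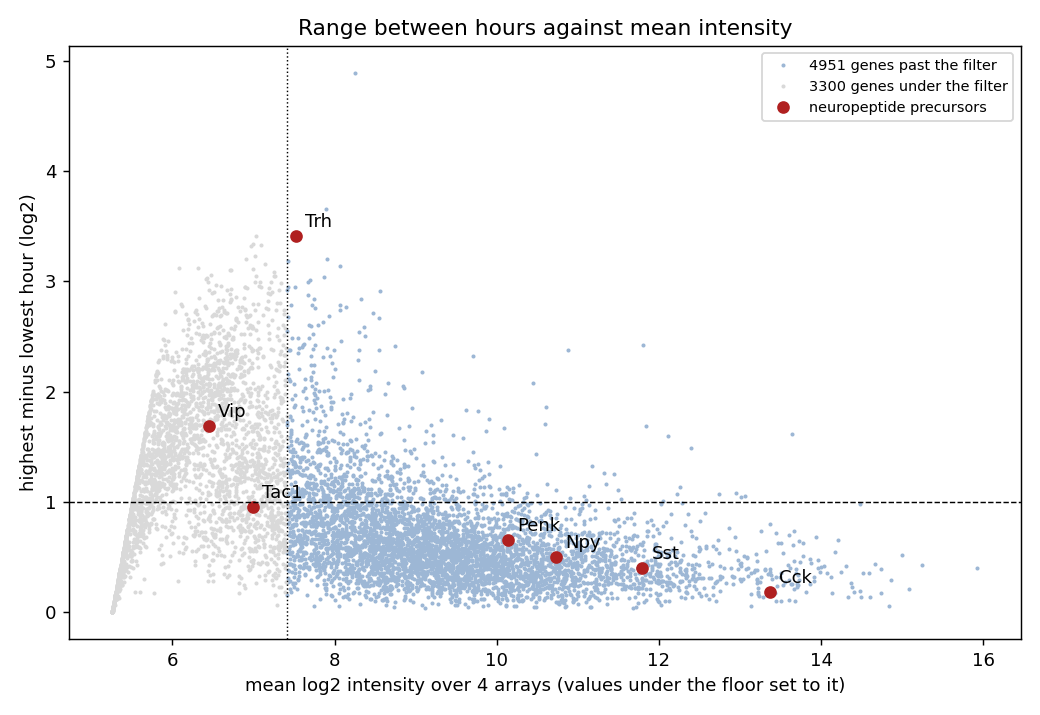
Range between the highest and lowest hour in log2 (vertical) against the mean log2 intensity over the 4 arrays (horizontal), 1 point per gene, with the 7 members in red; the dashed line is 2-fold and the dotted line the filter on dim genes. Trh lies at 3.41 near the top of the genes past the filter, Vip at 1.69 among dim genes, and Cck at 0.18 among the narrow ranges of bright genes.

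The members did not share an hour. By the probe set used for each gene, Sst, Tac1 and Vip were highest at 2 h, Penk and Trh at 4 h, Npy at 1 h and Cck at 6 h. The lowest value was at 6 h for Penk, Npy and Vip, at 4 h for Cck and Sst, and at 1 h for Trh and Tac1. The median log2 range over the 7 members was 0.66, and 0.50 over the 5 past the filter, beside 0.56 over all genes past the filter and 1.18 over those under it. The hour of the highest value was the same under array median scaling and quantile normalisation for each of the 7.

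Genes with the most similar course over the 4 arrays were found for the members that span over 2-fold, as the smallest root mean square difference of mean-centred log2 values. For Trh these were the lipopolysaccharide-binding protein gene Lbp, the inner ear glycoprotein gene Otog and the aldolase gene Aldoart2, with differences of 0.26, 0.36 and 0.42 log2. Lbp read 63.9, 390.6, 411.9 and 341.4, Otog 63.9, 256, 367.6 and 341.4, and Aldoart2 104, 362, 542 and 483, so all 3 were low at 1 h. For Vip they were Ptgds, which makes prostaglandin D2 and is abundant in the meninges, the deubiquitinase gene Usp15 and the ER-Golgi gene Ergic1, with differences of 0.19, 0.22 and 0.22 log2.

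The pattern of Vip, high at 2 h, was carried by Usp15 at 183, 435.5, 395 and 120 and by Ergic1 at 183, 413, 384 and 193. Ptgds read 8454, 25917, 13765 and 8912. Its other probe sets were also highest at 2 h, reading 6017, 16083, 7861 and 7503 and, for the other, 6040, 21244, 6939 and 6676. Igf2, of the choroid plexus list and also a gene of the meninges, was highest at 2 h as well, at 1849, 4402, 2955 and 2521, though its second probe set was above the floor at 4 h alone. The other choroid plexus gene past the filter, Ttr, was highest at 4 h (81.3, 234, 2408 and 191), the hour at which Trh and the first Penk probe set were highest. Of that list 6 of 10 genes had a probe set and 2 were past the filter, and its sum was 2164, 4975, 5930 and 3091. The part of such tissue in the Vip, Trh and Penk values was not tested.

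**Figure D3:**
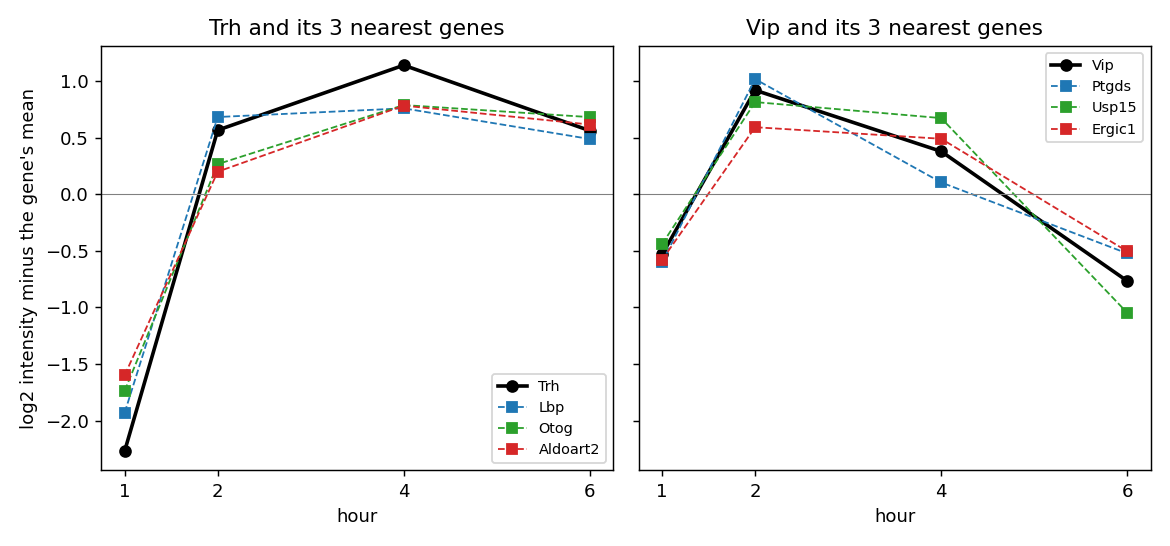
Log2 intensity minus the gene's own mean over the 4 arrays (vertical) against the hour (horizontal), for Trh (left) and Vip (right) in black and the 3 genes past the filter most like each in colour. The Trh panel shows 4 genes low at 1 h, and the Vip panel 4 genes high at 2 h, as chosen by the likeness rule.

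Most receptors for the 7 peptides were under the filter. Of 23 listed, 21 had a probe set, 5 were past the filter and 0 were called (4 slopes positive, 1 negative; median slope 0.01). Npy2r and Npy1r bind neuropeptide Y. The presynaptic receptor gene Npy2r read 3107, 2606, 2961 and 2907 and, with a second probe set, 699, 695, 586 and 914, while Npy1r read 301, 206, 160 and 328, lowest at 4 h. A second Npy1r probe set read 65, 124.7, 100.9 and 91.5, lowest at 1 h. For somatostatin, Sstr4 read 649, 568, 832 and 669 and Sstr2 314, 404, 555 and 243, a 2.28-fold range with the highest value at 4 h. The other Sstr2 probe sets read 327, 334, 318 and 264 and 242, 278, 278 and 239, over much narrower ranges. The brain cholecystokinin receptor gene Cckbr read 667, 899, 979 and 710, high at 2 h and 4 h.

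No receptor for enkephalin, thyrotropin-releasing hormone, tachykinins or vasoactive intestinal peptide was past the filter. The mu opioid receptor gene Oprm1 stayed under the floor on all 4 arrays (15.8, 11.5, 13.8 and 9.2), as did the somatostatin receptor gene Sstr1. The delta receptor gene Oprd1 read 69.6, 71.3, 36.5 and 13.5 and the kappa receptor gene Oprk1 59, 41.6, 52.7 and 85.8. For Trh, the receptor gene Trhr read 113.6, 83.6, 71.9 and 71, highest at 1 h. Substance P acts mainly through the product of Tacr1. The tachykinin receptor genes Tacr1 and Tacr2 read 47.5, 32.8, 23.4 and 73.3 and 66.1, 208, 86.5 and 251. Vipr1 read 83.3, 51.9, 90.1 and 206.8, Vipr2 71.5, 51.1, 150.1 and 23.3, and Adcyap1r1, a receptor gene of the related peptide PACAP, 86.9, 44, 50.7 and 165.6. A second Adcyap1r1 probe set read 11.4, 41.5, 20.2 and 32.3, above the floor at 2 h alone. The widest ranges among receptors were in such dim genes, led by Npy4r, above the floor at 6 h alone (173.7), Cckar (84.6, 135, 169 and 22.5) and Vipr1.

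Listed genes of precursor processing were mostly even between hours where they were past the filter. Under the filter, 4 (Pcsk1, Pam, Pcsk5 and Pcsk6) spanned over 2-fold, as did 57.9% of all genes under it. Pcsk2 had no probe set. Of 16 listed, 13 had a probe set, 9 were past the filter with 5 positive and 4 negative slopes, and 0 were called. The median slope of the 9 was 0.00 (0.0026), and 0 of them spanned over 2-fold, beside 15.0% of all genes past the filter. Cpe, the carboxypeptidase that trims basic residues after cleavage, read 22248, 20005, 17291 and 18705, and its second probe set 13750, 11536, 10150.3 and 12599, both lowest at 4 h. Pcsk1n, an inhibitor of the convertase PC1/3, read 7308, 5507, 4811 and 7272. Pcsk1, which encodes PC1/3 and cuts several of these precursors, lay under the floor at 1 h and read 17.6, 139, 151 and 105, a course with the same low hour as Trh but from a gene under the filter. The amidating enzyme gene Pam read 134, 60.1, 130 and 173, Pcsk5 72.9, 94.3, 199.9 and 156.6, and Pcsk6 85.6, 65.7, 122 and 151. Pcsk5 was thus highest at 4 h, where its other probe sets were lowest.

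Granins and other genes of vesicles and membrane fusion had 9 of 11 members with a probe set and 8 past the filter. Slopes were positive for 3 and negative for 5 (median −0.01), and 0 were called. Of the 8, 0 spanned over 2-fold, beside 15.0% of all genes past the filter. Chgb, a granin packed with peptides, read 22232, 15253, 16503 and 20901, highest at 1 h and lowest at 2 h, though a dim second probe set was highest at 4 h, and the membrane fusion gene Snap25 read 23491, 19965, 19493 and 21820. Ptprn2, a vesicle membrane protein gene under the filter, read 99.3, 90.7, 114.5 and 29.4.

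Among peptidases that break down neuropeptides, 11 of 15 had a probe set and 5 were past the filter, with slopes above 0 for all 5 (median 0.03) and 0 called. Npepps, an aminopeptidase, read 2207, 2188, 1915 and 2308, and Ece1, which degrades several peptides in endosomes, 479, 568, 602 and 674.5. Thop1, a metallopeptidase, spanned 2.14-fold (245, 193, 303 and 414). It was the 1 of the 5 over 2-fold, beside 15.0% of all genes past the filter. Neprilysin (Mme), which cleaves enkephalins, stayed under the floor on all 4 arrays. Dim members were Dpp4 (31.3, 84.6, 172 and 189), Nln (59.3, 96.5, 47.4 and 20.7) and Anpep (118, 111, 103 and 251).

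Other neuropeptide precursors, 42 in the list, had a probe set for 27, and 9 were past the filter (4 slopes positive, 5 negative; median −0.02; 0 called). Of these 9, 4 spanned over 2-fold, beside 15.0% of all genes past the filter. Secretin (Sct) read 1474, 1721, 3024 and 1773 with the highest value at 4 h, and angiotensinogen (Agt), an astrocyte gene, read 466, 1205, 700 and 1039. Oxytocin (Oxt), given above beside Trh, spanned 3.26-fold. Cortistatin (Cort), a close relative of Sst, read 736, 788, 703 and 543, with the same highest hour as Sst. Prodynorphin (Pdyn), the opioid gene of granule cells, read 272, 515, 239 and 251 and, with a second probe set, 375, 327, 225 and 270, so the peak at 2 h was not shared. Oxt, Cort and Pdyn were named after their values were seen. The widest ranges were under the filter, in Hcrt (10.6-fold) and Pomc (5.66-fold), given above, and in Nmu (102, 15.5, 147 and 110) and Gast (131.5, 4.2, 14.4 and 13.6). Nmu and Gast had values under the floor, and Gast was above it at 1 h alone. The other Gast probe sets were highest at 2 h (40.5, 91, 30.4 and 16.9) and at 6 h (16.8, 23, 53.2 and 86.2).

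**Figure D4:**
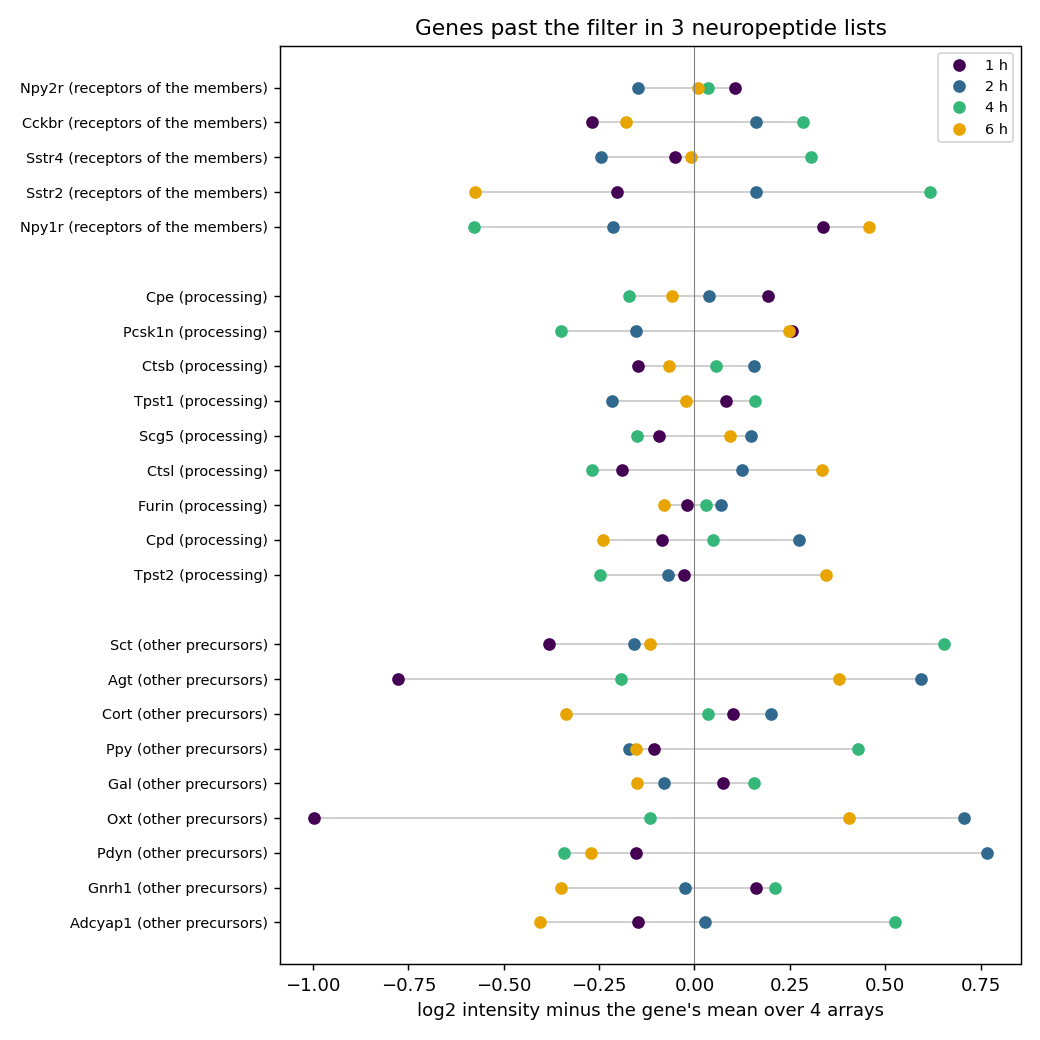
Log2 intensity minus the gene's own mean over the 4 arrays (horizontal) for the 23 genes past the filter among receptors of the members, processing enzymes and other precursors, with 1 coloured point per hour and a grey line from the lowest to the highest. Processing enzymes have the lowest median span of the 3 lists (0.37 log2), while Oxt and Agt reach furthest to the left at 1 h.

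Other cell types in the sample were read from their marker lists. The summed intensity of the list ran over the hours from 44778 to 49208 for astrocytes (7 of 8 with a probe set), from 11342 to 12650 for oligodendrocytes (6 of 7), from 7043 to 7773 for microglia (7 of 7), from 1852 to 2648 for endothelial and mural cells (8 of 8), from 5604 to 7733 for CA field and mossy cells (7 of 11) and from 2501 to 4486 for blood (4 of 5). In these 6 lists 0 markers were under the floor on all 4 arrays. A sum follows its brightest genes, which were Mt3 and Aldoc for astrocytes, Mobp and Mbp for oligodendrocytes, Ctss and C1qc for microglia, Eng and Cldn5 for endothelial and mural cells, Rgs14 and Bok for the CA field and mossy cells, and Hba-a1 and Alas2 for blood.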

How the data were processed

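The deposited table holds 1 linear array intensity per probe set and sample. How the authors made the values (scanner, software, scaling) is not given in the sources used here. Trimmed means were 500.3 on each array, so they were used as deposited. Probe sets were named by the platform annotation and RefSeq gene identifiers (10817 of 10833 single-symbol probe sets matched). For 2073 genes with several probe sets the one with the highest mean log2 was used. Values under the 20th percentile were set to it, and genes at or above the 40th percentile of gene means were tested with limma 3.58.1 in R 4.3.3 (lmFit, eBayes with an intensity trend, 2 residual and 10.4 median prior degrees of freedom), p-values adjusted by Benjamini-Hochberg over all 4951 genes. The p-values rest on the scatter of these 4 arrays about a line, which may be technical. For each gene limma draws that scatter towards the scatter of genes of similar intensity, here with more prior than residual degrees of freedom. Standard errors and intervals are moderated in the same way. The interval of a gene as scattered as Trh is therefore narrower than its own 4 values would give. The fit was tested on simulated data. Members and lists were chosen with earlier results of these data known. Named genes are all members, the 3 genes past the filter most like each member over 2-fold, in each pathway list the 2 with the highest mean and up to 4 over 2-fold, receptors by ligand, and in each cell type list the 2 with the highest mean. Genes outside this rule are marked as named after their values were seen. Alternatives changed scaling, floor, filter, probe set rule and samples. The number of arrays limits the precision.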

Additional observations from a re-analysis of the deposited data

Results flagged for a closer look

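The lowest Trh value stood apart from the other 3 arrays. On log2 values with the floor, the gap from the 1 h array to the next, divided by the whole range, was 0.830, just past Dixon's 95% critical value for 4 samples. It was 0.845 without the floor and 0.643 on linear intensities, under that value. The third Penk probe set gave a ratio of 1, because 3 of its 4 values were set to the floor. Without the floor its ratio was 0.584, under the critical value. Chance alone places about 1 in 20 groups past that value, and 9 probe sets were looked at. The cause of neither was tested.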

How the results depend on the processing

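Over the alternatives, 0 genes were called for a trend with scaling, floor, filter or probe set rule changed. Leaving out 1 sample gave 0 to 13 called genes (13 without the 1 h and 9 without the 6 h sample), each from 3 arrays with 1 residual degree of freedom. Of 56 refitted member slopes 0 were called and 4 reversed: Penk at 0.12 with the mean of its probe sets, Penk from −0.06929 to 0.1453 and Cck from −0.04303 to 0.04277 as single samples were left out (reversed without the 6 h sample), and Trh at −0.00119 without the 1 h sample. Trh was under the filter at the 60th percentile and without the 2, 4 or 6 h sample, so it has no slope there. The number of members over 2-fold was 2 in every alternative with all samples. Changing the filter, or fitting each probe set on its own, could not alter this count. In those settings it took the brightest probe set of every member, past the filter or not. The second Penk probe set, not counted there, spanned 3.94-fold. With a sample left out the count was 1 to 2, and 1 without the 1 h sample, where the Trh range was 0.58 log2. Scaling by the array median widened the range of Cck to 0.38 and of Sst to 0.59 log2. The range fell to 0.26 for Npy without the 1 h sample, to 0.28 for Penk without the 4 h sample and to 0.17 for Sst without the 2 h sample, so 1 array set much of each. No paired analysis was possible because there is 1 group. Signals near the floor, as for Vip and Tac1, limit what these arrays can order.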
